A study of Mus musculus with 4 samples.

Results

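The mammalian circadian clock was described here through 10 genes of AML12 cells, chosen by symbol as the core activators, the core repressors and 2 output transcription factors. All 10 were found among the 52630 gene identifiers of the table. AML12 is a mouse hepatocyte line derived from liver of mice carrying a TGF-alpha transgene. It was grown with 10% serum, an insulin supplement and 0.1 µM dexamethasone, so both groups carried a glucocorticoid. Control cells (shCtrl) received lentivirus with a control hairpin, and knockdown cells (shTopors) received lentivirus with a hairpin against the ubiquitin and SUMO ligase gene Topors. Each well was given 200 µl of virus concentrate, the medium was replaced after 24 h, and cells were harvested on day 5. There were 2 ribosomal RNA-depleted, strand-specific libraries per group. The labels name no hour of harvest and no step that synchronized the cells. A different mean level and a different clock time at harvest therefore cannot be told apart, and neither can fewer cells with a transcript and less of it per cell.

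The clock is a transcriptional loop. CLOCK, or its relative NPAS2, pairs with BMAL1, the product of Arntl, and activates genes through E-boxes, among them the Per and Cry genes, whose proteins then repress the activators. In a second loop REV-ERB and ROR nuclear receptors repress or activate Arntl. DBP and TEF belong to the PAR bZIP family, bind D-boxes and pass the rhythm on to metabolic genes of the liver. Serum and glucocorticoids are known to reset the clock of cultured cells, and Per1 is directly induced by glucocorticoids.

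Upstream sequences are shown first for members whose window held an E-box or a D-box, or the related E-prime box, since these are the elements by which the loop feeds back on its own genes. RefSeq windows of 250 bases before a start site (build GRCm38.p6) were found for 9 of the 10 members, the exception being Per2. Both strands were searched for CACGTG (E-box), CACGTT (E-prime box), TTANGTAA (D-box), TGACGTCA (CRE) and AGGTCA (a nuclear receptor half-site). The D-box search is not symmetric, so TTACNTAA was matched as well. No 2 matches overlapped in the printed windows. Capitals mark the matches, and each window runs 5′ to 3′ on the gene's strand: Per1 at chr11:69098699-69098948 (plus), Cry1 at chr10:85185055-85185304 (minus), Cry2 at chr2:92434070-92434319 (minus), Tef at chr15:81811164-81811413 (plus) and Per3 at chr4:151044666-151044915 (minus).
Per1: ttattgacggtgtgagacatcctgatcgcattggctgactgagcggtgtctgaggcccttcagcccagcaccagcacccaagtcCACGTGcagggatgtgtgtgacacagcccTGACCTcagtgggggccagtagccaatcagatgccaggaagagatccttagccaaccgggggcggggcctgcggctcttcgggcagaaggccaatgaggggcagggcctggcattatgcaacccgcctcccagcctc
Cry1: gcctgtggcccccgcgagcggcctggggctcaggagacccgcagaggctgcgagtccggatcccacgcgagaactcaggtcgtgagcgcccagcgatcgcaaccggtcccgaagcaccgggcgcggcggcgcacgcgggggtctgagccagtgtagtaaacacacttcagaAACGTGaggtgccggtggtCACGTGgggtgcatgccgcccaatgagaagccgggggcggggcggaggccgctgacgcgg
Cry2: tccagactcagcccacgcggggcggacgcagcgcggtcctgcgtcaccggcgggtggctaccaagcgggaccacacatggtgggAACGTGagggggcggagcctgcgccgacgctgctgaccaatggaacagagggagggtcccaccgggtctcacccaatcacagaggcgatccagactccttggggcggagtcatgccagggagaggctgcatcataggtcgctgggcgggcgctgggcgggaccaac
Tef: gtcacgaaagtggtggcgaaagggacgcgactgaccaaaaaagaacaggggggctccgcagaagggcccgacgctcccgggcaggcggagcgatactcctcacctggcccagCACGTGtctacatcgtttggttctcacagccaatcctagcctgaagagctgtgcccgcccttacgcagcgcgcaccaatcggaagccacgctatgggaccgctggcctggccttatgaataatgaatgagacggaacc
Per3: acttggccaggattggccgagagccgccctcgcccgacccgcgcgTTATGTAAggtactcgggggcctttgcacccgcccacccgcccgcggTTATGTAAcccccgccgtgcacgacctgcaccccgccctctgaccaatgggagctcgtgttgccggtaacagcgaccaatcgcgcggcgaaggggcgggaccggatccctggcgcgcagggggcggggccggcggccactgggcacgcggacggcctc

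The 9 members had 14 windows, since some have several starts. The E-box was present in 4 of the 14, before Per1, Cry1 and both annotated starts of Tef, and in 6.02% of all 32851 windows of this length. The E-prime box was present in 2, before Cry1 and Cry2, against 3.85% of all windows. The D-box was present in 1, before Per3, which held 2 copies, against 2.06% of windows. The half-site was present in 2, before Per1 and Clock, against 14.0% of windows, and the CRE in 0, against 1.55%. The windows with matches before Per1, Tef and Clock lay inside the annotated span of the same gene. The Tef window that is not printed (chr15:81802423-81802672) had all 250 bases in annotated exons of Tef and Gm17597. These are letter matches and say nothing of binding in AML12 cells.

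The hairpin's target was checked first. Topors stood at 21.9 and 29.2 TPM (a transcript level scaled for transcript length and for library size) in the controls and at 4.31 and 4.65 TPM in the knockdown. Depth is unknown because TPM keeps none. Hepatocyte markers summed to 3454 and 5485 TPM in shCtrl and to 2179 and 2533 TPM in shTopors, with 11 of 13 above the mean of 1 TPM needed for testing. Some single markers differed widely between the knockdown libraries. Alb was at 118 and 271 TPM in shCtrl 1 and 2 but at 4.15 and 402 TPM in shTopors 1 and 2. Apoa1 was at 12.3 and 28.4 TPM in the controls and at 113 and 11.5 TPM in shTopors 1 and 2. The 8 stellate cell and 5 endothelial markers were each under 1 TPM in every library. Of these, 3 and 2 were listed at 0 throughout. The 5 bile duct markers summed to between 952 and 1891 TPM, lowest in shCtrl 1 and highest in shTopors 1. The highest sum was mostly Krt19, at 1396 TPM in shTopors 1, 345 TPM in shTopors 2 and 341 and 296 TPM in the controls. Sox9 went the other way, at 76.8 and 91.2 TPM in shCtrl and 26.9 and 42.1 TPM in shTopors. Krt7 and Spp1 overlapped between the groups, and Epcam reached at most 0.0975 TPM. The 5 leukocyte markers summed to between 0.910 and 1.38 TPM. All 8 G2/M markers were higher in both knockdown libraries, as were 14.6% of all tested genes, with sums of 81.6 and 109 TPM in the 2 control libraries, while the knockdown libraries read 293 and 160.5 TPM, and their part in the clock gene differences was not tested.

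In the knockdown, the repressor genes Per1, Per2 and Cry2 and the output genes Dbp and Tef were 1.78-fold to 3.51-fold lower by group mean, while the activators Arntl and Clock overlapped between the groups. Of the remaining repressor genes, Cry1 was 1.18-fold lower and Per3 overlapped, with a higher mean in the knockdown. The difference between repressors and activators was not tested. Of the 10 members, 9 had a mean of at least 1 TPM and were tested with limma on log2(TPM + 1) over 13509 genes. Per2 had the lowest knockdown level relative to control of these 9. None of the 9 passed an adjusted p of 0.05, in a fit where 0.0296% of all tested genes passed as lower and 0.0074% as higher. Topors, 5.71-fold lower by group mean, did not pass either (log2 difference -2.27, limma adjusted p = 0.0823). Missing this threshold therefore does not show that a level was unchanged. At an unadjusted p under 0.05, 4 members were lower and 0 higher, against 10.7% and 3.98% of all tested genes. The groups did not overlap for 6 members, all lower, where 35.2% of all genes were lower in this way and 14.6% higher. The members' median log2 difference was -0.79, beside a median of -0.18 over all tested genes. With shTopors 1 left out, 3 members passed as lower (Per1, Per2 and Tef), and with shTopors 2 left out, 4 did (Per2, Cry2, Dbp and Tef), where 6.67% and 10.9% of all genes passed as lower. With either control left out, 0 passed. The labels do not say whether the libraries of a group are separate cultures, so p-values measure the spread between libraries, which may be technical.

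**Figure D1:**
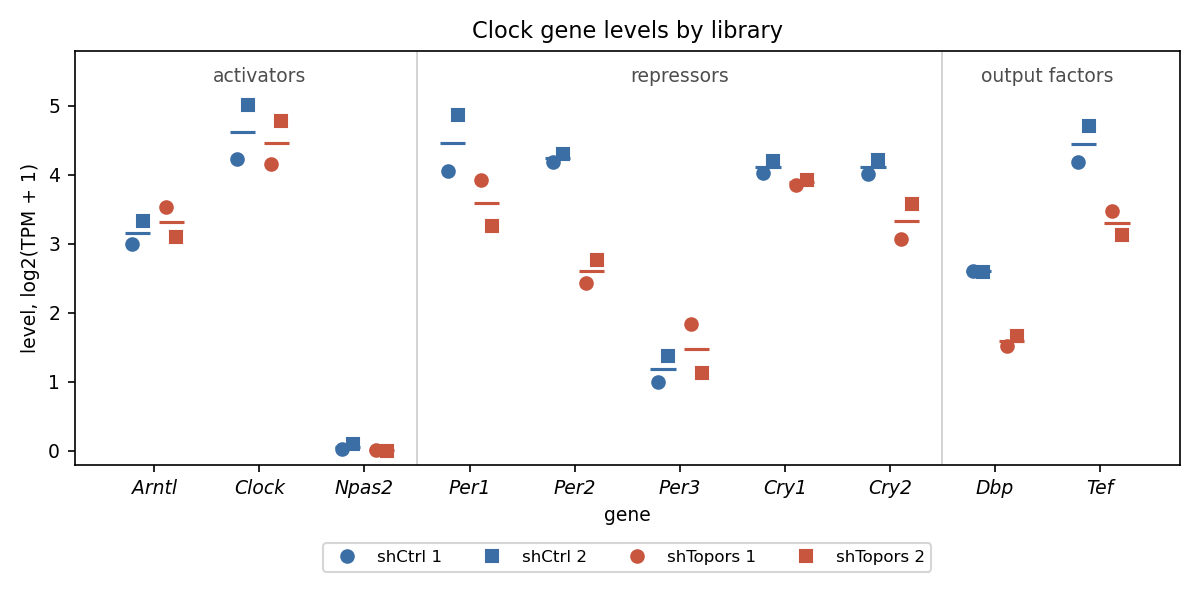
Level of the 10 clock genes in each library as log2(TPM + 1), grouped by role. Blue symbols are shCtrl, red symbols are shTopors, circles are replicate 1 and squares are replicate 2, and short lines are group means. Per2, Dbp and Tef show both knockdown libraries below both controls with a wide gap. Cry2 shows them below with a narrower gap, while Arntl, Clock and Per3 overlap.

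Arntl encodes BMAL1, the partner that every activator complex of the clock needs. In mm10 it occupies chromosome 7, 113207465 to 113314126, plus strand. It was at 6.95 and 9.07 TPM in control cells, compared with 10.6 and 7.55 TPM in knockdown cells. The groups overlapped, with shTopors 1 highest and shCtrl 1 lowest. The log2 difference of Arntl was 0.16 (SE 0.31, limma adjusted p = 0.825), with a 95% interval from -0.57 to 0.88. That interval includes differences in either direction, so equal levels were not shown.

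Clock encodes the main partner of BMAL1 and lies on chromosome 5, 76209868 to 76304792, minus strand. Its transcript was the most abundant of the 10 in all 4 libraries, at 17.8 and 31.2 TPM in shCtrl 1 and 2 and 16.9 and 26.4 TPM in shTopors 1 and 2. In each group the library numbered 2 was the higher one, and the difference between the 2 controls exceeded that between the group means. Clock had a log2 difference of -0.16 (SE 0.36, limma adjusted p = 0.852, interval from -1.02 to 0.70). Ube2n-ps1, a pseudogene inside Clock on the same strand, was listed at 14.1 to 18.8 TPM, so the Clock value is uncertain to the extent that reads could fall to either gene, which was not tested. Npas2, on the plus strand of chromosome 1 from 39193731 to 39363236, encodes the alternative partner of BMAL1. It was listed at 0.0131 and 0.0718 TPM in the controls against 0.0112 and 0 TPM in the knockdown and was not tested. Of the 2 partner genes, Clock was thus the one above 1 TPM.

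Per2, a PERIOD repressor gene on the minus strand of chromosome 1 from 91415982 to 91459324, had the largest difference of the 9 tested members. It was at 17.2 and 18.7 TPM in the 2 control libraries, while the knockdown libraries read 4.40 and 5.84 TPM. The gap between the groups was many times the gap within either group, and libraries of a group differed by 1.09-fold and 1.33-fold. Means were 17.9 ± 1.09 and 5.12 ± 1.02 TPM (SD, n = 2). The log2 difference of Per2 was -1.64 (SE 0.29, interval from -2.31 to -0.97), and 1.12% of all tested genes had a lower one. Its adjusted p of 0.130 in limma's test missed the threshold. The log2 difference was -1.47 without shTopors 1 and -1.81 without shTopors 2. It was -1.70 without shCtrl 1 and -1.58 without shCtrl 2.

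Per1 encodes a second PERIOD protein and occupies chromosome 11, 69095217 to 69109960, plus strand. It was at 15.7 and 28.1 TPM in control cells, compared with 14.3 and 8.53 TPM in knockdown cells. The groups did not overlap, but shCtrl 1 and shTopors 1 lay close together. Per1 had a log2 difference of -0.87 (SE 0.38, limma adjusted p = 0.354). Per1 passed when shTopors 1 was left out (log2 difference -1.21, limma adjusted p = 0.0182). It was -0.53 without shTopors 2 (limma adjusted p = 0.312) and -0.47 without shCtrl 2 (limma adjusted p = 0.988). Its groups overlapped after median-of-ratios scaling.

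Because Per1 responds to glucocorticoids and the medium held dexamethasone, other glucocorticoid-responsive genes are given beside it. Of 9 such genes, Per1 included, 8 were tested and none passed. All 8 had log2 differences below the all-gene median, 7 had knockdown values below both controls and 4 were lower at an unadjusted p under 0.05, where 35.2% and 10.7% of all tested genes were. The median log2 difference of the 8 was -0.86. Among them Tsc22d3, the gene of the glucocorticoid-induced leucine zipper protein, was at 150 and 187 TPM in shCtrl 1 and 2 and 129 and 57.3 TPM in shTopors 1 and 2. Like Per1 and Sgk1, Tsc22d3 was nearer to control in shTopors 1. Errfi1, Klf9 and Zbtb16 were nearer to control in shTopors 2, and Fkbp5 and Dusp1 were nearly equal in both knockdown libraries. Whether a difference in glucocorticoid response has a part in the Per1 level was not tested.

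Per3, the PERIOD gene regarded as dispensable for the core rhythm, lies on chromosome 4, 151003652 to 151044665, minus strand. It was at 0.988 and 1.60 TPM in the controls against 2.57 and 1.18 TPM in the knockdown. The groups overlapped, and shTopors 1 alone was above both controls. The log2 difference of Per3 was 0.30 (SE 0.35, limma adjusted p = 0.705, interval from -0.53 to 1.12). Per3 lies within the span of Camta1 on the same strand, so intronic reads of Camta1 (2.72 to 3.76 TPM) could reach a gene at this low level.

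The CRYPTOCHROME genes encode the strongest repressors of CLOCK and BMAL1, and their transcripts had near-equal control levels. Cry1, on the minus strand of chromosome 10 from 85131700 to 85185064, was at 15.3 and 17.4 TPM in the 2 control libraries, while the knockdown libraries read 13.4 and 14.2 TPM. The groups did not overlap but were close, and they overlapped after quantile normalization. Cry1 had a log2 difference of -0.22 (SE 0.27, limma adjusted p = 0.706, interval from -0.85 to 0.41), beside the all-gene median of -0.18. Cry2, on the minus strand of chromosome 2 from 92403646 to 92434043, was at 15.1 and 17.6 TPM in control cells, compared with 7.39 and 11.0 TPM in knockdown cells. Both knockdown values of Cry2 were below both controls, shTopors 1 by more. The log2 difference of Cry2 was -0.79 (SE 0.30, limma adjusted p = 0.309), and it passed with shTopors 2 left out (-1.05, limma adjusted p = 0.0234). Without shTopors 1 it was -0.53 (limma adjusted p = 0.407). The difference between the 2 Cry genes was not tested.

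Both PAR bZIP output genes were lower in each knockdown library than in each control. Dbp, the D-box binding protein gene, is a direct target of CLOCK and BMAL1 and occupies chromosome 7, 45705088 to 45710203, plus strand. It was at 5.11 and 5.02 TPM in shCtrl 1 and 2 and 1.87 and 2.18 TPM in shTopors 1 and 2. The control libraries differed by 1.02-fold and the knockdown libraries by 1.16-fold, the closest control pair among the 10. The means of Dbp were 5.07 ± 0.0587 and 2.02 ± 0.216 TPM (SD, n = 2), 2.50-fold lower in shTopors. Dbp had a log2 difference of -1.01 (SE 0.28, limma adjusted p = 0.224), and 5.47% of all tested genes had a lower one. The end of Dbp overlaps Sphk2 on the opposite strand, which was at 12.0 to 16.9 TPM. No source used here states whether reads were counted by strand.

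Tef, the thyrotroph embryonic factor gene (chromosome 15, 81802421 to 81826863, plus strand), was at 17.2 and 25.1 TPM in the controls against 10.1 and 7.71 TPM in the knockdown. The groups were well apart, although the controls differed by 1.46-fold. The means of Tef were 21.2 ± 5.55 and 8.90 ± 1.69 TPM (SD, n = 2), 2.38-fold lower in shTopors. Tef had a log2 difference of -1.15 (SE 0.31, limma adjusted p = 0.219), and 3.55% of all tested genes had a lower one. Tef passed with either knockdown library left out, with a limma adjusted p of 0.00720 without shTopors 1 and 0.0373 without shTopors 2. Dbp passed without shTopors 2 only (limma adjusted p = 0.0227). Hlf, the third member of the PAR bZIP family, was listed at 0 TPM in all 4 libraries.

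**Figure D2:**
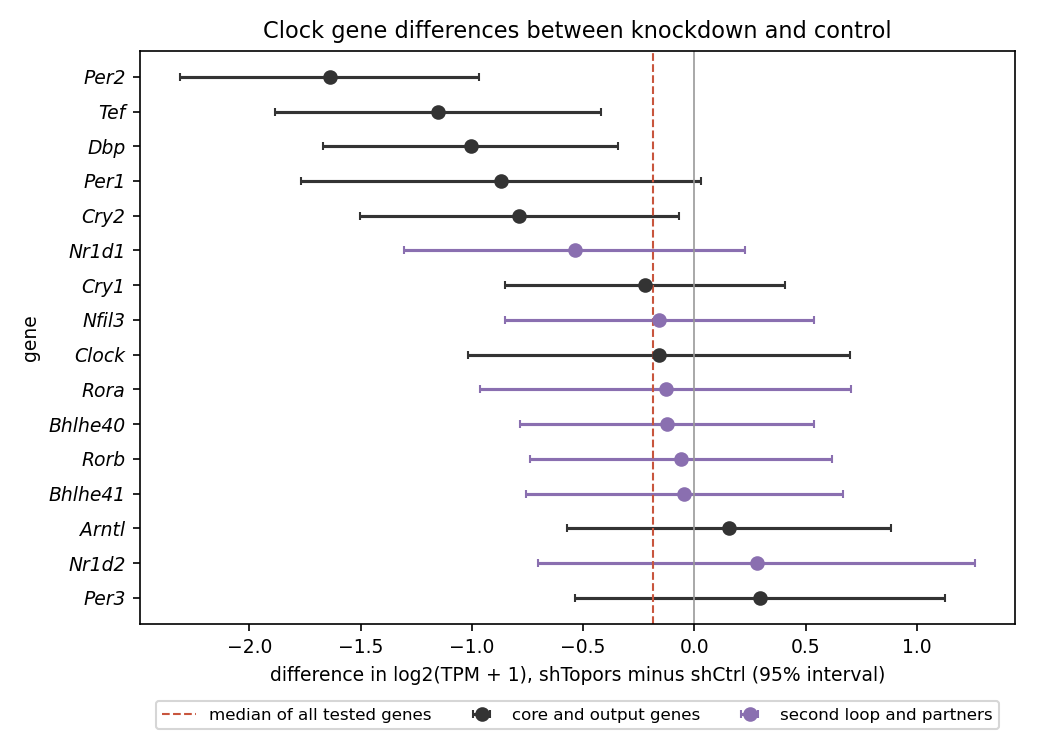
Difference in log2(TPM + 1) between shTopors and shCtrl for the 9 tested clock genes (black) and the 7 tested genes of the second loop and its partners (purple), with 95% intervals from limma. The dashed line is the median of all tested genes at -0.18, and the intervals of Per2, Tef and Dbp lie wholly below it.

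The order of the members' levels differed between the groups below Clock. In the controls Clock, Per1, Tef, Per2, Cry2 and Cry1 lay between 15.1 and 31.2 TPM, and neighbours in this order of group means overlapped. Arntl followed at 6.95 to 9.07 TPM, then Dbp at about 5 TPM and Per3 at under 2 TPM, and these 3 ranges were separate. Npas2 was last in all 4 libraries. In the knockdown Clock was followed, by group mean, by Cry1 at 13.4 to 14.2 TPM, with Per1, Cry2, Arntl and Tef between 7.39 and 14.3 TPM and overlapping. Per2, in place 3 and 4 in the control libraries, was in place 7 in both knockdown libraries, below Arntl in each. Dbp and Per3 overlapped in the knockdown.

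Because Arntl normally peaks when its targets are low, it was set against 5 of them within each library, where scaling between libraries has little effect. On the log2(TPM + 1) scale Arntl was below Per2 by a difference of -1.19 and -0.97 in shCtrl and above it by 1.11 and 0.32 in shTopors. Arntl exceeded Dbp by 0.38 and 0.74 in shCtrl and by 2.02 and 1.43 in shTopors. Both pairs were separate between the groups, with shTopors 1 farther from control. Relative to Per1, Arntl stood at -1.07 and -1.53 in shCtrl and at -0.39 and -0.16 in shTopors, which were also separate. Arntl minus Per3 was 2.0 and 1.96 in shCtrl and 1.70 and 1.97 in shTopors, which overlapped. Arntl minus Nr1d1 was 1.03 and 1.28 in shCtrl and 2.38 and 1.32 in shTopors. These were separate too, but shTopors 2 was next to shCtrl 2. The 5 pairs share Arntl and so are not independent. Per2, Dbp, Per1 and Nr1d1 were each lower without overlap on their own, as were 35.2% of all tested genes, so these pairs largely restate those values. The share of all genes that separate from Arntl in this way was not counted. With 2 libraries against 2, an exact two-sided permutation test cannot go below p = 0.333 for any such value.

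**Figure D3:**
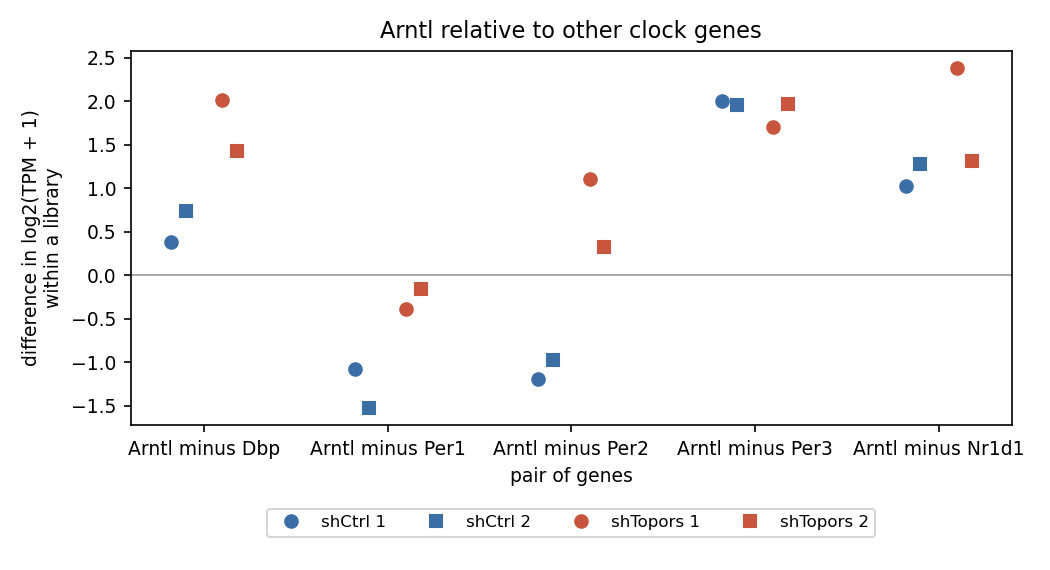
Difference in log2(TPM + 1) between Arntl and each of 5 clock genes within a library. Blue is shCtrl, red is shTopors, circles are replicate 1 and squares replicate 2. For Per2 the controls lie below 0 and the knockdown libraries above it, and for Per3 the groups overlap.

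Among 10 genes of the second loop and the D-box partners, 7 were tested and none passed, against 0.037% of all tested genes. At an unadjusted p under 0.05 there were 0 in either direction. Nr1d1, the REV-ERB alpha gene, was at 2.89 and 3.14 TPM in control cells, compared with 1.23 and 2.43 TPM in knockdown cells. Its groups did not overlap, but shTopors 2 was near the controls (log2 difference -0.54, limma adjusted p = 0.467). Nr1d2, the REV-ERB beta gene, was at 5.41 and 11.8 TPM in shCtrl 1 and 2 and 7.70 and 12.9 TPM in shTopors 1 and 2, with overlap. The remaining tested genes also overlapped between groups. They were Rora and Rorb, which encode ROR receptors, Nfil3, whose product represses at D-boxes, and Bhlhe40 and Bhlhe41, whose products compete at E-boxes. Their log2 differences lay between -0.16 for Nfil3 and -0.04 for Bhlhe41. Bhlhe40 was the most abundant of the 10 listed here, at 66.3 and 84.6 TPM in the controls against 81.8 and 57.7 TPM in the knockdown. Ciart and Arntl2, a repressor gene and a relative of Arntl, were each under 1 TPM in every library. Over the 7 tested genes the median log2 difference was -0.12, and 1 of them, Nr1d1, was lower without overlap, against 35.2% of all genes.

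Of 15 genes for kinases, ubiquitin ligases and cofactors that act on clock proteins, 14 were tested and none passed. At an unadjusted p under 0.05, 2 were lower and 0 higher, near the 10.7% and 3.98% of all tested genes. The median log2 difference was -0.29. The 4 with the smallest p were Fbxl21, Gsk3b, Btrc and Kdm5a. Fbxl21, a ligase subunit gene for CRY proteins, was at 5.97 and 7.28 TPM in the 2 control libraries, while the knockdown libraries read 4.24 and 2.81 TPM. Gsk3b, a kinase gene, was at 28.3 and 35.6 TPM in control cells, compared with 20.0 and 20.1 TPM in knockdown cells. Btrc, the beta-TrCP ligase gene that acts on PER proteins, was at 41.4 and 44.0 TPM in shCtrl 1 and 2 and 22.9 and 32.8 TPM in shTopors 1 and 2. Kdm5a, a histone demethylase gene, was at 63.9 and 90.9 TPM in the controls against 56.8 and 55.0 TPM in the knockdown. Of the 14 tested, 5 were lower without overlap, near the 35.2% of all tested genes, and the 4 named were among them. The casein kinase genes Csnk1d and Csnk1e, whose products time PER turnover, overlapped between groups.

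Of 16 clock-controlled output genes, 14 were tested and none passed. At an unadjusted p under 0.05, 4 were lower and 0 higher, against 10.7% and 3.98% of all tested genes, and the median log2 difference of -0.13 was close to that of all genes. The 4 were Cys1, Herpud1, Lpin1 and Tsc22d3. Cys1, a cilium-associated gene, was at 6.53 and 8.41 TPM in the 2 control libraries, while the knockdown libraries read 3.83 and 2.03 TPM. Lpin1, a phosphatidate phosphatase gene, was at 19.0 and 24.4 TPM in control cells, compared with 14.5 and 6.24 TPM in knockdown cells. Herpud1, a gene of endoplasmic reticulum protein degradation, was at 193 and 293 TPM in shCtrl 1 and 2 and 131 and 152 TPM in shTopors 1 and 2. Por, the cytochrome P450 reductase gene, went both ways, at 71.7 and 80.2 TPM in the controls but 152.5 and 52.5 TPM in shTopors 1 and shTopors 2. The liver genes Gys2 and Cyp7a1 were listed at or near 0 TPM in every library and were not tested. Over the 3 lists together, 35 of 41 genes were tested, 12 were lower without overlap and 1 was higher, beside 35.2% and 14.6% of all genes, and their median difference was 0.03 above that of all genes. With shTopors 1 left out, 4 of the 35 passed as lower (Tsc22d3, Lpin1, Cys1 and Marveld1) and 0 as higher, against 6.67% and 1.82% of all genes. With shTopors 2 left out, Herpud1 passed as lower and Por as higher, against 10.9% and 5.09% of all genes.

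**Figure D4:**
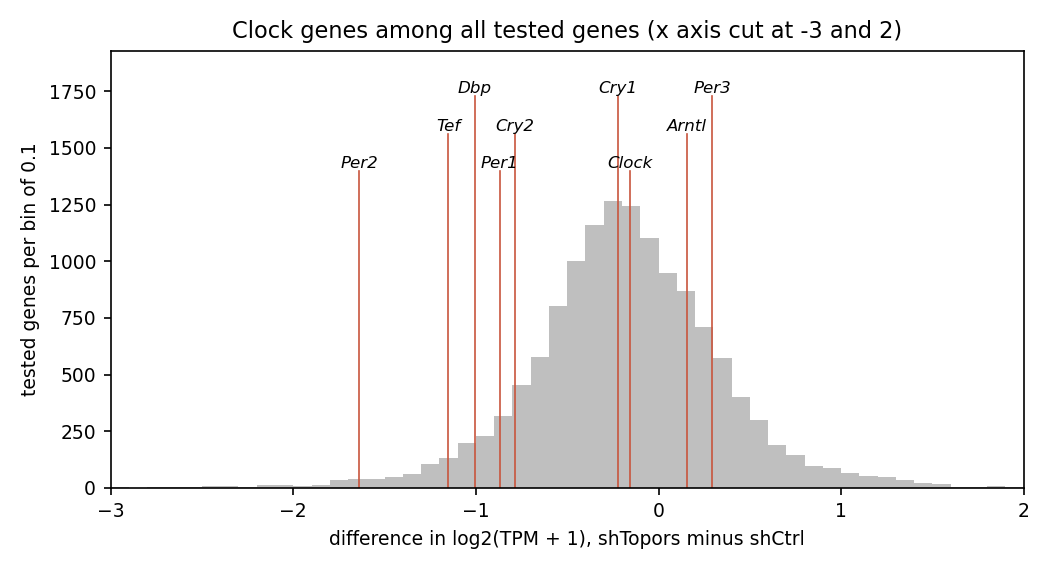
Histogram of the difference in log2(TPM + 1) over the 13509 tested genes in bins of 0.1, with red lines at the 9 tested clock genes. The axis ends at -3 and 2, which leaves 27 genes outside, and Per2, Tef, Dbp, Per1 and Cry2 lie in the left tail while Cry1 and Clock lie near the peak.

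The larger differences kept their direction under the settings tried, but most of these settings could not have reversed it. Per2, Tef, Dbp, Per1 and Cry2 were lower under every alternative in which they were tested. The groups of these genes did not overlap. Other filters, pseudocounts or variance models, the replicate block and leaving out a library therefore could not reverse the sign. Only the scalings could have, and all of these genes stayed lower under each scaling. Relative to the median of all genes, Per2 lay between -1.62 and -1.06, Tef between -1.17 and -0.78 and Dbp between -1.08 and -0.40. Arntl, Clock and Per3 took either sign when a library was left out, and Clock also did so after median-of-ratios scaling (0.05) and quantile normalization (0.01). These scalings moved the median difference of all genes from -0.18 to 0.01 and -0.01. In each, 5 members were lower with no overlap between groups, against 22.5% of all genes under the ratio scaling and 22.7% under the quantile one. Arntl, with overlap in the values as deposited, was higher without overlap under both, as was Per3 under the quantile one, and neither passed the test. The share of all genes higher in this way under these scalings was not counted, so neither gene can be set against it.

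**Figure D5:**
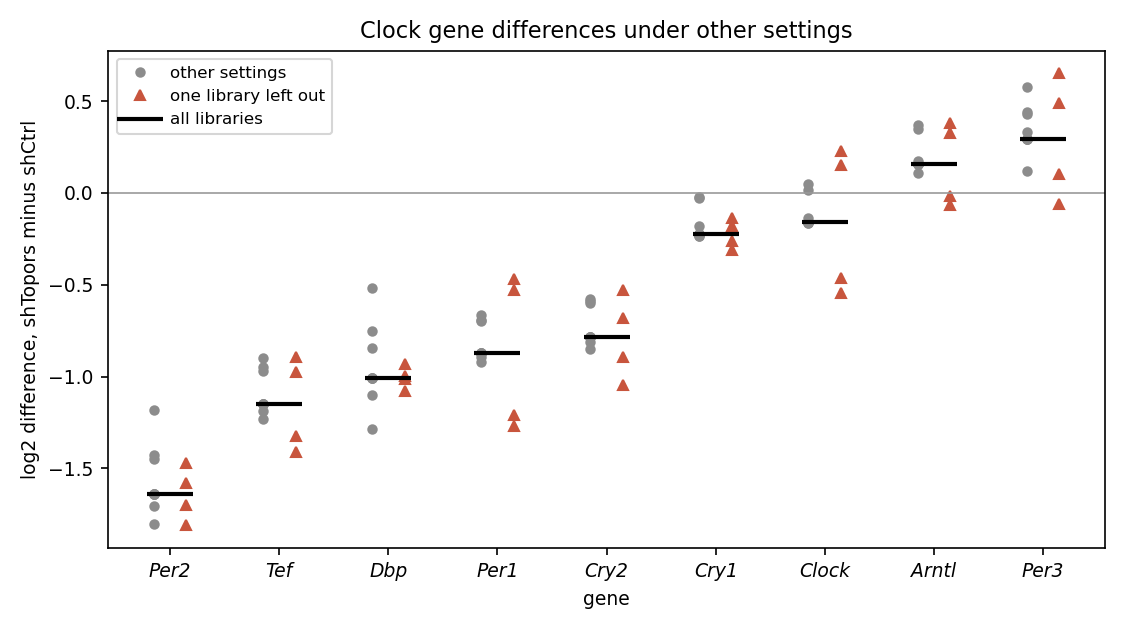
Log2 difference of each tested clock gene with all libraries (black bars), under other settings (grey circles) and with 1 library left out (red triangles). Per2, Tef, Dbp, Per1, Cry2 and Cry1 stay below 0 throughout, and Clock, Arntl and Per3 cross it.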

How the data were processed

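Gene levels were used as the TPM that the authors deposited, 1 value for each gene in each library. Per the submitters' processing notes, HISAT2, HTSeq, DESeq2 and StringTie were used with the build mm10, and their roles are not stated. Columns were matched to samples by title, and 0 columns were left over. Values of 3 identifiers on 2 rows were summed, and 26 of 27 symbols turned into dates were restored by identifier. GENCODE M21 gave the coordinates, and RefSeq (GRCm38.p6) the upstream windows, without the bases after the start.

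The test was limma 3.58.1 (R 4.3.3) on log2(TPM + 1) values, with a trend of variance on mean level. It covered the 13509 genes whose mean over the 4 libraries reached 1 TPM. Knockdown minus control was the only term, and p-values were adjusted by Benjamini-Hochberg over all of these genes. Differences on this scale understate those of low genes. The members and gene lists were chosen with earlier results of these data known. The rule for named genes takes all members, all second-loop genes, and up to 4 genes with the smallest p of each other list. For 2 listed genes results are not reported here, and the counts leave them out. Csnk1d, Csnk1e, Marveld1, Por, Gys2 and Cyp7a1 were added after their values were seen. The steps were tested on simulated data. Alternatives were other pseudocounts, filters, scalings, variance models, a replicate block and leaving out each library. Figures were drawn with Python 3.11.15 and matplotlib 3.10.9.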

Additional observations from a re-analysis of the deposited data

How the results depend on the processing

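With all libraries, and under each of the 10 settings that kept all 4 libraries, 0 clock genes and 0 genes of the 3 further lists passed an adjusted p of 0.05. With 1 library left out, the number of clock genes past the threshold ranged from 0 to 4 and that of the further genes from 0 to 4. In such fits the single library left in a group is taken to vary as much as the other group does. The clock genes were 3 without shTopors 1 and 4 without shTopors 2, and the further genes were 4 and 2. Without either control the count was 0 for both. The cause was not tested. A pseudocount of 0.1 or 5, no filter or a filter at a mean of 5 TPM, 3 scalings, no trend and a robust fit left both counts at 0.

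The replicate block also left both counts at 0, while the number of all genes past the threshold was 33 in place of 5. The replicate numbers correlated at 0.20 in their deviations from the group means, which with 2 pairs is no evidence of pairing. TPM keeps no depth, so counting error is unknown, and it matters most for Npas2, Per3 and Dbp.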
